A study of Mus musculus with 16 samples.

Results

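This account describes the autosomal regions that were called as peaks in both A-myb mutant H3K27ac libraries and in neither wild-type library, called mutant-only regions here. The 4 deposited peak lists were merged on chromosomes 1 to 19 wherever peaks overlapped by 1 bp or more. The merge gave 33417 regions, and 1432 of them, or 4.29%, were mutant-only. For comparison, 3078 regions were in both wild-type lists and no mutant list, and 9763 were in all 4 lists. The members were thus chosen by the presence or absence of a called peak in the 4 lists, so every peak measure given below is a description and carries no test.

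The study profiled histone acetylation in mouse spermatocytes and gene expression in mouse embryonic stem (ES) cells. The spermatocyte libraries came from pachytene cells of C57BL/6J males aged 8 to 12 weeks, isolated by sedimentation (STA-PUT) from 1 mouse at a time. There were 2 wild-type libraries and 2 libraries of A-mybrepro9/repro9 mice, all immunoprecipitated without crosslinking after micrococcal nuclease digestion, with 1 H3K27ac antibody. The input libraries were not analysed here. The 8 ES libraries, from J1 cells of strain 129S4/SvJae at passage 36, all carried a transgene with dCas9-VPR, a dead Cas9 fused to transcription activators, and a guide RNA to the retroviral repeat RLTR10B2 marked by DsRed. They were collected at day 3 in 4 groups of 2: untreated, 1 µg/ml doxycycline (Dox), induced A-MYB, and Dox with induced A-MYB. The labels do not say whether ES replicates were separate cultures, so the p-values below measure the spread between these libraries, which may be technical.

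H3K27ac is the acetylation of a lysine in the tail of histone H3, a mark carried by nucleosomes at active promoters and enhancers. A-MYB, the product of Mybl1, is a DNA-binding transcription factor that switches on many meiotic and piRNA pathway genes when male germ cells reach pachytene. Males that lack its function are infertile, with spermatocytes that arrest during pachytene, so cell stage and loss of A-MYB cannot be told apart in a comparison of the fractions.

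Only 4 mutant-only regions held a gene start listed in the promoter reference, so few listed promoters belong to the set. Of the genes that start there, 3 are shown by the 250 bases before the start (RefSeq, GRCm38.p6, the same build as mm10), because they show what promoter sequence these regions contain. Capitals mark matches to the MYB core AACNG on either strand. Gm13288 lies at chr4:88805281-88805530 on the plus strand, Gm13710 at chr2:84506874-84507123 on the minus strand, and Gm6833 at chr7:38962499-38962748 on the minus strand.

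Gm13288: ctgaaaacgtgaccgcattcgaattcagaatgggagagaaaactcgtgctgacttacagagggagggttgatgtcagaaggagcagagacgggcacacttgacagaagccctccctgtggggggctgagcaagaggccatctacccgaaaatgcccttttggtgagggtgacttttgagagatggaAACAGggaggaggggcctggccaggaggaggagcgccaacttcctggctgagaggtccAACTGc
Gm13710: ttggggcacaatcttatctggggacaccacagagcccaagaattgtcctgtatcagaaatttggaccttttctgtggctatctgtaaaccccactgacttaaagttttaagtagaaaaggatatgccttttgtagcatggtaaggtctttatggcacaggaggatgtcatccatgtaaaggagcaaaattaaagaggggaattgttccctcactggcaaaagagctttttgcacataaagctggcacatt
Gm6833: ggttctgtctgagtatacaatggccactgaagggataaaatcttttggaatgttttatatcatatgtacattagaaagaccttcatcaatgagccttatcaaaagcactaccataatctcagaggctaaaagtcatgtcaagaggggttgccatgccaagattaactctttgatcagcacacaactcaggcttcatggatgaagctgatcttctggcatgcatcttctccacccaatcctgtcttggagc

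The Gm13288 promoter held 2 MYB core matches and the other two shown held none. Across the 7 annotated promoters that start in mutant-only regions, 3 (42.9%) held the core, against 74.0% of 31396 autosomal promoters of the same length. Their median was 0 CpG dinucleotides and a GC content of 46.8%, against 6 and 52.4% for all promoters. The CCAAT box (CCAAT) was found in 4 of the 7 and in 33.7% of all promoters, and the GC box (GGGCGG) in 1 and in 33.0%. The 7 are not separate sequences. Gm32110 counts with 2 promoters that overlap each other, and the Gm6833 promoter overlaps 1 of them. All of these overlapping promoters held the CCAAT box and 0 CpG, so the CCAAT count and the medians partly repeat the same bases. The other promoters held 7 CpG (Gm13288), 0 (Gm13710), 15 (Gm41501) and 6 (Gm52236). With 7 promoters these shares are a description of single sequences. The cyclic AMP response element TGACGTCA, the E-box CACGTG and the AP-1 motif TGANTCA were in none of the 7, and were in 1.58%, 6.02% and 6.77% of all promoters.

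The 4 regions with a start were wide, with low folds in both mutant libraries. The region around Gm13288, chr4:88804288-88807119, had a fold of 3.11 over 214 tags in mutant library 1 and of 3.23 over 180 tags in mutant library 2. Fold here is the enrichment that the authors' peak caller wrote for a peak, and tags are the reads it counted in it. Gm13288 lies in the type I interferon cluster, where Ifna7, Ifna11 and Ifnz, genes for secreted antiviral cytokines, are among its neighbours. The region around Gm13710, a long noncoding RNA between Calcrl, Tfpi and Ctnnd1, is chr2:84504894-84507417, with folds of 3.01 and 3.54. It lay 225 bp from a region that a wild-type list held. The region at chr7:38960485-38963707, with folds of 2.69 and 2.88, held the starts of the oppositely oriented Gm6833 and Gm32110. The region at chr16:93697387-93706547 held the starts of Gm52236 and Gm41501 and was the widest member, at 9161 bp.

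Peaks of an acetylation mark of active promoters are usually found at gene starts, and few members were. A gene start lay inside 4 of 1380 mutant-only regions, or 0.29% (exact 95% binomial interval 0.079% to 0.74%). The interval covers counting error only. Regions are not replicates, so it is no test against the shares of other classes. The 52 members on chromosome 18 were left out, since the reference promoter table holds no start there. It also lacks the starts of some genes elsewhere. Of 260 genes in the fixed lists used below, 192 had a start in it, as did 5 of 10 endothelial genes. Shares and distances given here therefore hold for the listed starts only. The share was 1.88% of wild-type-only regions, 0.83% of regions in all 4 lists and 1.41% of all merged regions. Members were also narrower, with a median of 1078 bp against 1486 bp, 2021 bp and 1446 bp in the same order. A narrow region has less room to hold a start, and the part of width was not tested. Allowing starts within 1 kb brought the members to 9, or 0.65%. Of 15641 genes with an ES cell level and a start in the reference, 2 (0.013%) had their start in a member. The start lay in a peak for 1.29% of them in wild-type list 1, 0.403% in wild-type list 2, and 0.147% in each mutant list. In the 3129 genes with the highest levels in control ES cells, the numbers of genes with their start in a peak were 38, 5, 0 and 1, and 0 for members, which is no lower than so small a share over all genes gives. ES cells are not spermatocytes, but many of the genes highest in one cell type are used by most. Each mutant list held the starts of only 23 of the 15641 genes, so the label H3K27ac is not borne out at gene starts in these lists, and the members are named by their rule rather than as active elements. The cause was not tested.

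Members were sparser near gene starts than farther away. Centres were counted on both sides of every start, so a centre counts once for each start it lies near. Per 1000 Mb of flanking sequence there were 95.7 member centres within 500 bp of a start, 159 from 500 bp to 1 kb and 63.8 from 1 to 2 kb. The density was 218 from 2 to 5 kb, 354 from 5 to 10 kb and 425 from 50 to 100 kb. The 3 nearest bins rest on 3, 5 and 4 centres, so the order among them cannot be read. Wild-type-only regions had their highest density, 1562, within 500 bp of starts, where 49 centres were counted. Regions in all 4 lists rose from 1020 to 3204 over the same distances.

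**Figure D1:**
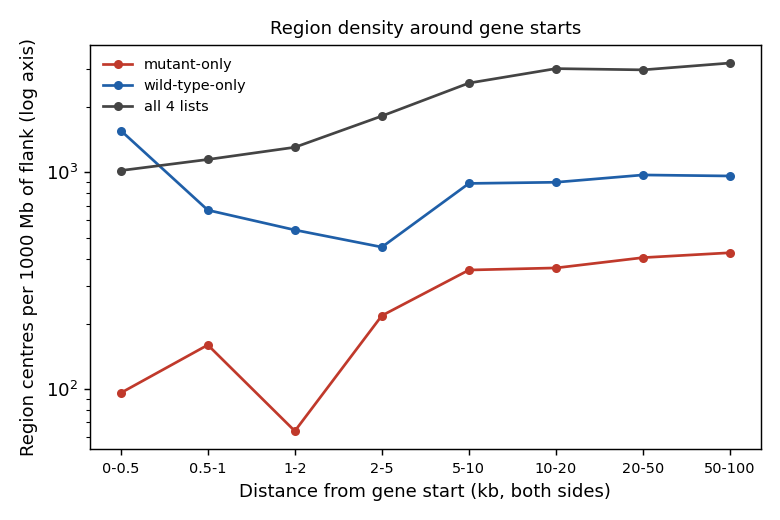
Density of region centres by distance on both sides of every annotated gene start (kb, bins, log vertical axis, centres per 1000 Mb of flank), with 1 line per class of region. A centre counts once for each start it lies near. The mutant-only line is at 95.7 in the nearest bin and 425 in the farthest, while the wild-type-only line is highest, at 1562, in the nearest bin.

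The median member was 69750 bp from the nearest gene start in the reference, which lacks some starts, so true distances may be shorter. The medians were 63561 bp for wild-type-only regions and 63880 bp for regions in all 4 lists. Of the members, 145 (10.5%) lay within 10 kb of a start and 548 (39.7%) lay over 100 kb away. Protein-coding genes spanned 363 members (25.3%), against 24.6% of wild-type-only regions and 25.6% of regions in all 4 lists. Genes of any kind spanned 499 (34.8%). The annotation used gives gene spans and no exons, so exonic and intronic positions were not separated. The median member had 4 protein-coding genes within 500 kb, as did the median region of both other classes. The median protein-coding gene itself had 16.

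Of all 25748 genes in the promoter table, 6 (0.023%) start in a member, so a marker list would hold such a gene only by exception. Across 14 lists with 260 genes, 192 had a start in the reference, and 0 of these starts lay in a member, which is the level of all genes and no result about these lists. Peaks of wild-type list 1 held 5 of them, and the other lists held 1 (wild-type list 2), 0 (mutant list 1) and 1 (mutant list 2). Within 50 kb of a member there were 4 of the 192 starts (2.08%), against 3.82% of all 25748 genes in the table. None of the 20 pachytene and piRNA genes with a start and none of the 15 spermatid genes was among them. The same was true of the interferon response list, with 14 starts, and of the p53 response list, with 12. Of lists for other cells that a testis fraction can hold, Sertoli, Leydig, peritubular, endothelial and leukocyte, no start lay in a member. Their part in the peak lists was not tested.

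Fixed-list genes near a member were few and are named singly. Sohlh1, a transcription factor of differentiating spermatogonia, starts within 50 kb of chr2:25808620-25809802, where the folds were 4.18 and 4.38. The start nearest to that member, of whichever gene, was 6034 bp away. Cst12, a cystatin expressed in Sertoli cells, starts within 50 kb of chr2:148759277-148761207, with folds of 3.12 and 3.78 and the nearest start of any gene at 8916 bp. Pdgfra, a growth factor receptor of mesenchymal cells, starts within 50 kb of chr5:75131181-75132167, with folds of 4.03 and 7.12 and the nearest start of any gene at 20084 bp. Trip13, an ATPase that remodels meiotic HORMA-domain proteins, spans chr13:73925906-73926772, with folds of 4.70 and 5.06. Mei4, needed for meiotic DNA break formation, spans chr9:82164073-82165527, with folds of 6.93 and 5.90. Ptprc, the leukocyte surface phosphatase CD45, spans chr1:138104190-138105207, with folds of 6.49 and 6.90.

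Members were narrow and of modest enrichment. Their width ranged from 412 to 9161 bp with a median of 1078 bp, against 1486 bp for wild-type-only regions and 2021 bp for regions in all 4 lists. The median fold was 4.74 in mutant library 1, over a range of 2.38 to 10.29, and 4.83 in mutant library 2, over 2.23 to 10.58. Regions in all 4 lists had nearly the same median mutant folds, 4.70 and 4.68, but more tags per peak. Their medians were 95 and 89 tags, against 53 and 51 for members. Members were below regions in all lists in width and tag number, while the median folds were close. Width spans every merged peak, so a region of 4 lists unites more peaks than a member does. A wide region also has more room to overlap a wild-type peak and so fall outside the rule. The part of either in these differences was not tested, and no trait of members is read from them.

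Both mutant libraries gave members similar folds. The folds were within 1.5 times of each other in 1391 members (97.1%) and within 1.2 times in 981 (68.5%). Library 1 had the higher fold in 706 (49.3%), so neither library led. Across the 1432 regions the folds correlated with Pearson's r of 0.74 and Spearman's rho of 0.74. These are descriptions, since the points share 2 libraries and their depth. Fold and width moved in opposite directions, with a rho of -0.56 in each library. The caller's scores were less alike, with a rho of 0.27.

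**Figure D2:**
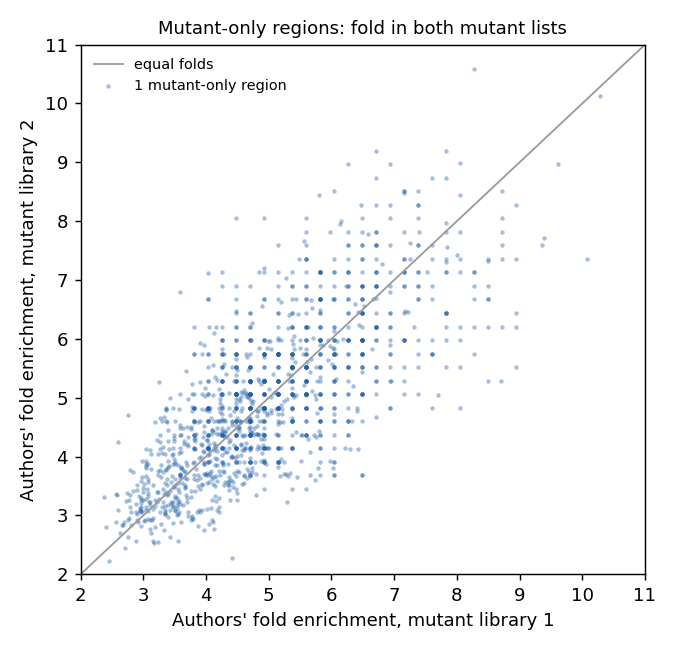
Fold enrichment written by the authors' peak caller for each of the 1432 mutant-only regions, mutant library 1 on the horizontal axis and mutant library 2 on the vertical axis, with the line of equal folds. Points run along the line (rho 0.74) from about the lowest folds, 2.38 and 2.23, to 10.29 and 10.58.

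Many members were close to the limit of the lists. The score column is headed as a negative log10 p-value but starts at 50 in every list, the value that this caller's default limit has on its own scale of 10 times that logarithm, so it is called a score here. The weaker of a member's 2 scores had a median of 60.36. It was under 60 in 702 members (49.0%) and in 1819 regions of all 4 lists (18.6%). Both scores reached 100 in 65 members (4.54%), against 3180 regions of all 4 lists (32.6%). For regions with both mutant peaks and 1 wild-type peak, the median weaker mutant score was 65.48.

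**Figure D3:**
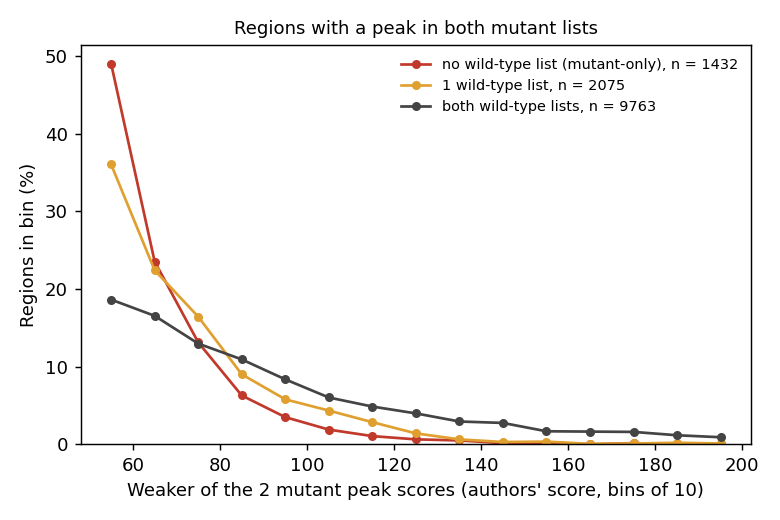
Share of regions (%) by the weaker of their 2 mutant peak scores, in bins of 10, for regions with a peak in both mutant lists and in 0, 1 or 2 wild-type lists. The mutant-only line starts highest, with 49.0% of 1432 regions in the lowest bin, and the line for both wild-type lists starts at 18.6%.

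Many regions just inside and just outside the rule were set apart by a single weak call. Of 13270 regions in both mutant lists, 1432 (10.8%) were in no wild-type list, 2075 (15.6%) in 1 and 9763 (73.6%) in both. Among the 2075, the wild-type peak scored under 60 in 528 (25.4%) and had a median score of 72. Just inside the rule, the region chr7:59702452-59704072 in Snhg14 had mutant scores of 50 and 52.85, and chr3:119096000-119096710 in Dpyd had 54.15 and 50.01. Just outside it, chr14:17030097-17032184 in Rarb had mutant scores of 107.65 and 81.06 and a wild-type score of 50.02. The region chr7:103838210-103839064 at Hbb-bh2 had mutant scores of 53.97 and 61.91 and a wild-type score of 50.04. Of 5877 regions with mutant peaks and no wild-type peak, 1432 (24.4%) were in both mutant lists, 2389 only in list 1 and 2056 only in list 2. So most calls that one mutant library made outside the wild-type lists were not made by the other. Leaving out 1 list drops 1 condition of the rule, so a higher number of members follows from the rule itself. The number was 3559 without mutant replicate 1 and 3876 without mutant replicate 2. It was 2686 without wild-type replicate 1 and 2274 without wild-type replicate 2.

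The distance from members to wild-type peaks is given as a description. A region held by a wild-type list was within 1 kb of 167 members (11.7%), within 10 kb of 570 (39.8%) and within 50 kb of 1107 (77.3%). The median distance was 15932 bp. Merged regions of any class stood at 13.6 per Mb, and these shares were not counted for other regions. Nearness to wild-type peaks is therefore not read as a trait of members. The deposited lists hold no wild-type tag counts at the members, so the wild-type level there is not known, only that no peak was called.

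Ranked by the smaller of its 2 folds, the first member was chr4:83591287-83592230. Its folds were 10.29 over 52 tags in mutant library 1 and 10.12 over 56 tags in mutant library 2. It lies in the span of Ccdc171, a coiled-coil domain gene, 65.7 kb from the gene's nearest start, and the nearest region of a wild-type list was 30827 bp away. The second was chr13:109870620-109871635 in Pde4d, a cyclic AMP phosphodiesterase, with folds of 9.62 and 8.97. The third, chr13:49512173-49513052, lies where Cenpp, a centromere protein gene, and Ecm2, an extracellular matrix gene, overlap, with folds of 8.72 and 8.51. The fourth, chr10:11402372-11403260 in Epm2a, the gene of the glycogen phosphatase laforin, had folds of 8.95 and 8.28. These folds rest on 48 to 62 tags a peak, so their precision is limited by counting.

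The remaining 11 of the 15 members with the largest smaller fold had folds between 7.71 and 10.58. Their hosts were Asah2, a neutral ceramidase (chr19:32085815-32087290, folds of 8.72 and 7.82), and Cdh4, a cadherin (chr2:179535888-179536744, folds of 8.05 and 7.82). Sorl1, a sorting receptor (chr9:41971455-41972887), had folds of 7.83 and 7.82. Myrip, a myosin and Rab interacting protein (chr9:120399542-120400407), had folds of 9.39 and 7.71. The other 7 lay in no annotated gene span. One, chr8:21818668-21819638, was 39.3 kb from the start of Defb10, a beta-defensin, and another, chr6:148026073-148026967, was 20.4 kb from Far2, a fatty acyl-CoA reductase gene. The most remote, chr4:11908786-11909748, was 1111 kb from any start in the table.

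The members with the most tags were wide and low in fold. The region of Gm52236 and Gm41501 on chromosome 16 had 603 and 630 tags at folds of 2.38 and 3.31. The region chr5:76931549-76939507 in Ppat, the first enzyme of purine synthesis, had 560 and 595 tags over 7959 bp at folds of 2.70 and 2.45. The region chr8:123600412-123604423 overlapped the 5S ribosomal RNA gene n-R5s138 and Rn5s-ps1, a 5S pseudogene by its symbol, with 496 and 493 tags. Near-identical gene copies share reads, so tags in the 5S region could come from any copy and are uncertain in position. The region chr7:59734885-59737740 in Snhg14, the long noncoding host RNA of the Prader-Willi locus, had 489 and 492 tags. The region chr1:84990640-84995623 had 463 and 433. The widest others were chr10:22736791-22743250 near Tbpl1, a TBP-related factor needed for spermiogenesis, chr7:3765707-3771107 near Pira1, a paired immunoglobulin-like receptor, and chr2:20380966-20386281 in Etl4.

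Members were spread over all 19 autosomes. Their density ran from 0.418 per Mb on chromosome 11 to 0.700 on chromosome 3, with 0.582 over all autosomes, where lengths were taken to the last annotated gene. It was lower on gene-rich chromosomes: over 19 chromosomes, members per Mb against protein-coding genes per Mb had an r of -0.51 and a rho of -0.48. All merged regions gave -0.50 and -0.42, so the members shared this with the lists as a whole. As a share of merged regions, members made up 3.56% on chromosome 4 and 5.64% on chromosome 19, the lowest and highest values.

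**Figure D4:**
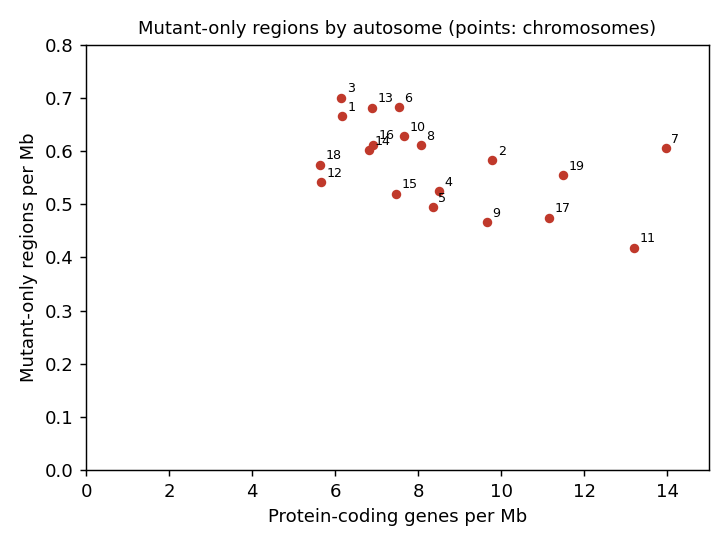
Mutant-only regions per Mb against protein-coding genes per Mb, 1 point per autosome, numbered. Chromosome 11, with 13.2 genes per Mb, is lowest at 0.418 regions per Mb, and chromosome 3, with 6.15 genes per Mb, is highest at 0.700.

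Few neighbouring members lay close together. The median gap between neighbours was 997670 bp, with 29 of 1413 gaps under 10 kb. Of 996 windows of 1 Mb with a member, 648 had 1, and the members outside these 648 windows shared theirs. The spacing was not tested. The window at 83 to 84 Mb of chromosome 16 had most, with 5 members among 26 merged regions, and no gene start in the table. Members repeated within many gene spans, both short and long. Spans that held 2 members included Gm30068 (18.7 kb) and Lsamp (2197 kb). Only a few loci held 3 or 4, and these were long. The immunoglobulin kappa locus Igk and the T cell receptor alpha locus Tcra held 4 each, Snhg14 and the glypican gene Gpc6 also 4, and Igh and the heparanase-like gene Hpse2 held 3. These spans also held many other regions: 67 merged regions lay in Igk, 64 in Tcra, 38 in Snhg14 and 14 in Gpc6. The nearest start belonged to an olfactory receptor gene (Olfr) for 22 members (1.59%), to a Vmn1r pheromone receptor gene for 12 (0.87%) and to a Vmn2r gene for 10 (0.72%). In the same order, the shares were 2.11%, 1.91% and 0.97% of wild-type-only regions and 2.11%, 0.53% and 0.83% of regions in all 4 lists. These families made up 3.64%, 0.80% and 0.45% of genes in the table. Skint genes are named for a member that acts in the selection of skin T cells. They were nearest for 5 of 1380 members (0.36%), 0 of 2984 wild-type-only regions and 8 of 9401 regions of all 4 lists (0.085%). They made up 0.043% of genes in the table. Skint was picked from several families looked at, and no test was run on these few. None of 919 autosomal miRNA hairpins overlapped a member.

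Expression was measured in other cells and libraries, so it is independent of the rule. In ES cells the gene for A-MYB itself, Mybl1, stood at 8.38 and 6.92 CPM (gene counts scaled to library size by the TMM method) in the untreated libraries and at 22.0 and 17.8 with induced A-MYB. With Dox it was at 10.99 and 10.2, and with Dox and A-MYB at 19.9 and 16.6. Mybl1 rose in both contrasts, by 1.38 ± 0.14 without Dox (log2, SE, n = 2 per group, edgeR quasi-likelihood adjusted p = 1.24e-07) and by 0.79 ± 0.13 with Dox (edgeR adjusted p = 2.31e-05). In each contrast both libraries with induced A-MYB were above both controls.

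Of the 6 genes that start in members, only Gm13288 and Gm13710 were in the count tables, and both were nearly silent in ES cells. The others have no ES cell value here. Gm13288 had 0 counts in all 8 libraries. Gm13710 had 0 in the untreated and the A-MYB libraries, 0.0303 and 0.0344 CPM with Dox, and 0.0584 and 0.0297 CPM with both. Neither passed the filter on low counts, so neither was tested with it. When every gene with at least 1 count was kept, Gm13710 could be tested and was not called, with a change of 0 without Dox and of 0.39 ± 1.89 with Dox (log2, SE, edgeR adjusted p = 1 and 0.901). A-MYB raised 19.5% and lowered 15.2% of the 14664 genes tested without Dox, and raised 26.8% and lowered 28.4% with Dox.

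Protein-coding genes whose span holds a member, called host genes here, gave more values. This set was added after the data were seen. There were 321, of which 300 were in the count tables and 181 passed the filter. The filter keeps genes with counts in any group, so the 181 are the expressed part and not all members' hosts. A gene that passed only through 1 group can be called only as higher in that group. The counts and medians below may therefore lean to such groups. Hosts were long, with a median span of 173 kb against 17.1 kb for all protein-coding genes, and low in ES cells, with a median of 0.477 CPM in untreated libraries against 4.53. Hosts of regions in all 4 lists and of wild-type-only regions were long and low too, with median spans of 122 and 151 kb and medians of 1.47 and 0.334 CPM. The part of length, level and filter in the counts below was not tested.

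Without Dox, 47 of the 181 host genes (26.0%) were higher with A-MYB and 11 (6.08%) lower, at an edgeR adjusted p under 0.05, against 19.5% and 15.2% of all genes tested. The remaining 123 did not pass. Their median log2 change was 0.21, against -0.0047 over all genes tested. With Dox, 62 (34.3%) were higher and 35 (19.3%) lower, against 26.8% and 28.4% of all genes, with a median of 0.15 against 0.0052. Hosts of regions in all 4 lists gave nearly the same shares, 27.4% and 5.41% of 1072 without Dox and 31.8% and 20.0% with Dox. Hosts of wild-type-only regions gave 26.9% and 2.99% of 334, and 33.5% and 16.2%. Of the 300 member hosts in the tables, 145 also held a region of all 4 lists and 92 a wild-type-only region, so these sets overlap, and nothing here is particular to members. Without Dox the member hosts gave 27 higher and 8 lower without untreated replicate 1, 33 and 5 without untreated replicate 2, and 30 and 5 without A-MYB replicate 1. The 2 A-MYB contrasts share no library. Of the 181, 18 (9.94%) were higher in both, 5 (2.76%) lower in both and 12 (6.63%) called in opposite directions, against 6.71%, 9.02% and 6.34% of all genes tested. These shares follow from those of the single contrasts at least in part, and no relation between the contrasts is read from them.

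Of the host genes with the largest rises, 4 were named by both contrasts, and all were low in untreated cells. Lphn3, an adhesion G protein-coupled receptor of synapses, was at 2.70 and 3.54 CPM in untreated libraries and at 7.49 and 6.81 with A-MYB. With Dox it went from 4.54 and 4.64 to 17.0 and 16.8. It rose by 1.201 ± 0.18 without Dox (log2, SE, edgeR adjusted p = 1.20e-05) and by 1.88 ± 0.16 with Dox (edgeR adjusted p = 2.45e-10). The member in its span, chr5:81453073-81454594, had folds of 3.43 and 3.42. Magi2, a synaptic scaffold, was at 0.416 and 0.777 CPM untreated, 1.53 and 2.27 with A-MYB, 1.36 and 1.07 with Dox, and 6.37 and 6.47 with both. It rose by 1.69 ± 0.37 and 2.39 ± 0.29 (log2, SE; edgeR adjusted p = 0.000792 and 1.85e-07). The naming rule took only genes whose libraries do not overlap between groups, so that is no further support.

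Mecom, a zinc finger transcription factor of blood stem cells, was at 0.312 and 0.466 CPM untreated and 1.31 and 1.74 with A-MYB. It was at 0.636 and 0.619 CPM with Dox and 2.69 and 1.39 with both. Its changes were 1.97 ± 0.50 and 1.70 ± 0.44 (log2, SE; edgeR adjusted p = 0.00307 and 0.00222). Both calls depended on single libraries: the change was 1.68 without untreated replicate 1 and 1.14 without Dox and A-MYB replicate 1, and neither then passed. Galntl6, a GalNAc-transferase-like gene, was at 0.346 and 0.350 CPM untreated, 1.06 and 0.801 with A-MYB, 0.606 and 0.825 with Dox, and 2.78 and 2.49 with both. It rose by 1.405 ± 0.49 without Dox and by 1.88 ± 0.40 with Dox (log2, SE; edgeR adjusted p = 0.0294 and 0.000337). Its call without Dox was lost when untreated replicate 1 (1.37), untreated replicate 2 (1.38) or A-MYB replicate 1 (1.17) was left out, and when only the 4 libraries of that contrast were fitted.

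Of the host genes with the largest falls, 3 were named by both contrasts. Sorl1, which also holds one of the 15 members with the largest fold, was at 80.6 and 92.5 CPM untreated and 72.7 and 69.6 with A-MYB. With Dox it went from 69.1 and 70.3 to 35.4 and 37.0. It fell by 0.28 ± 0.077 without Dox and by 0.95 ± 0.079 with Dox (log2, SE; edgeR adjusted p = 0.0057 and 2.53e-10). Without untreated replicate 2 the smaller fall was 0.21 and lost its call. Crxos1, a homeobox gene of early embryos and ES cells, was at 103.5 and 92.3 CPM untreated, 78.8 and 81.7 with A-MYB, 70.9 and 67.6 with Dox and 33.3 and 37.1 with both. It fell by 0.29 ± 0.076 and by 0.98 ± 0.080 (log2, SE; edgeR adjusted p = 0.00469 and 1.66e-10), and the first call was lost without untreated replicate 1, where the fall was 0.23. Dpysl3, a cytoskeletal regulator of growing neurons, was at 11.3 and 13.1 CPM untreated and 6.61 and 6.81 with A-MYB, and went from 3.51 and 4.67 with Dox to 2.31 and 2.34. It fell by 0.86 ± 0.17 and 0.81 ± 0.20 (log2, SE; edgeR adjusted p = 0.000396 and 0.00161).

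**Figure D5:**
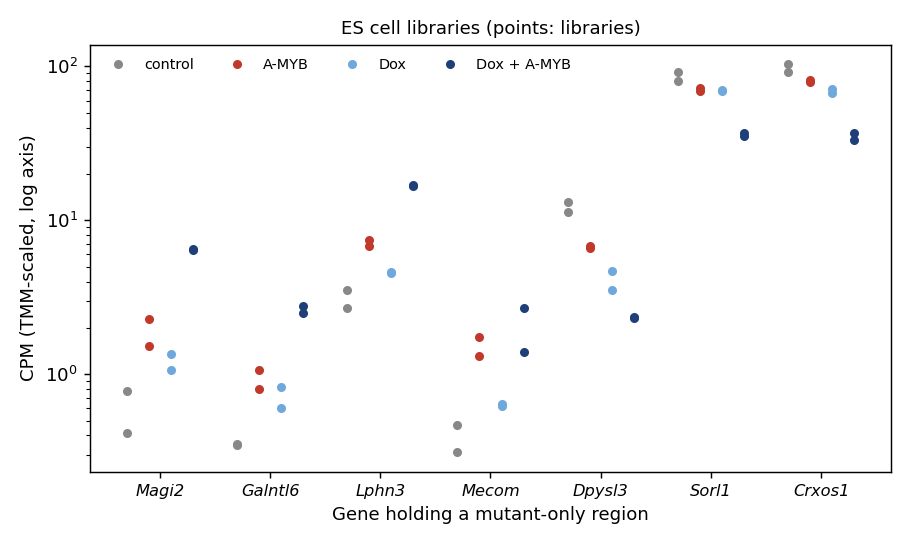
CPM (TMM-scaled, log axis) in each of the 8 ES libraries for the 7 genes spanning a mutant-only region that were among the largest called changes of both A-MYB contrasts; each point is 1 library. For Magi2, Galntl6, Lphn3 and Mecom the points with A-MYB lie above their controls, and for Dpysl3, Sorl1 and Crxos1 they lie below.

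Other host genes were among the largest changes of one contrast only, by the naming rule and not by a test of the difference. With Dox, A-MYB raised Sdk2, a synaptic adhesion protein, from 0.606 and 0.137 CPM to 4.24 and 3.65, by 3.36 ± 0.48 (log2, SE, edgeR adjusted p = 2.25e-06). Myrip, another host of a high-fold member, went from 0.575 and 0.653 CPM to 4.15 and 3.17, by 2.57 ± 0.41 (log2, SE, edgeR adjusted p = 8.17e-06). Sned1, Rbm20, Ccdc85a and Lrp1b also rose with Dox, by 1.57 to 2.13 on the log2 scale. Plod2, a collagen lysyl hydroxylase, fell from 134 and 117 CPM to 81.9 and 71.8, by 0.71 ± 0.074 (log2, SE, edgeR adjusted p = 1.93e-08). Dpysl2, Fam174b, Pam and the G protein gene Gnaq also fell with Dox, by 0.63 to 1.39. Rhobtb3 and Tmx4 fell by 0.58 each. Both lost the call without Dox replicate 1 (falls of 0.46 and 0.46) and without Dox and A-MYB replicate 2 (0.37 and 0.44).

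Without Dox, Cntln, a centriole protein gene, was at 0.623 and 0.350 CPM untreated and at 2.23 and 1.84 with A-MYB, a rise of 2.04 ± 0.42 (log2, SE, edgeR adjusted p = 0.00047). Ano3, Iqub, Zfp442, Cyp7b1 and Fam135a also rose, by 0.87 to 1.52. Of these, all but Zfp442 also passed with Dox. Apba2 and Dnajc12 fell by 1.22 and 0.68. Both calls were lost without A-MYB replicate 1, where the falls were 0.59 and 0.54, and that of Apba2 also without untreated replicate 2 (1.01), while without A-MYB replicate 2 its fall was 2.59. Mrps28, Sipa1l1, 9030617O03Rik, Fars2 and Pet112 fell by 0.23 to 0.35. Sipa1l1 lost its call without untreated replicate 2 (a fall of 0.24) and without A-MYB replicate 2 (0.21). For 9030617O03Rik it was lost without untreated replicate 2 (0.21), A-MYB replicate 1 (0.35) or A-MYB replicate 2 (0.29). For Fars2 it was lost without untreated replicate 1 (0.31), untreated replicate 2 (0.31) or A-MYB replicate 1 (0.22), and under DESeq2. For Pet112 it was lost without any 1 of the 4 libraries (0.23 to 0.29). With Dox, 9030617O03Rik and Pet112 went the opposite way, with rises of 0.47 and 0.52.

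The other hosts of the 15 members with the largest fold gave these values. Ccdc171 was at 4.03 ± 0.32 CPM untreated and 4.04 ± 0.85 with A-MYB (SD, n = 2), and at 3.65 ± 1.44 with Dox and 6.05 ± 0.25 with both (SD, n = 2). Its change was -0.0033 ± 0.24 without Dox and 0.74 ± 0.23 with Dox (log2, SE; edgeR adjusted p = 0.994 and 0.00977). Pde4d changed by 0.12 ± 0.15 and 0.17 ± 0.15 (log2, SE; edgeR adjusted p = 0.589 and 0.331). Cenpp rose without Dox by 0.65 ± 0.12 (log2, SE, edgeR adjusted p = 0.000278), from a mean of 19.2 to 30.2 CPM, and its change with Dox was 0.20 ± 0.12 (edgeR adjusted p = 0.148). Cdh4 rose with Dox by 1.00 ± 0.23 (log2, SE, edgeR adjusted p = 0.000769). Epm2a did not pass in either contrast (edgeR adjusted p = 0.31 and 0.0573). Asah2 and Ecm2 were under the filter on low counts.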

How the data were processed

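Per the submitters' processing notes, reads were handled with bcl2fastq 2.20.0, HISAT2 2.1.0, Bowtie2 2.3.3.1, HTSeq and MACS 1.4.2 on mm10; settings and the control library for peaks are not given in the sources used here. The deposited peak lists, 1 per library, give tag counts, fold and a score for each peak as the authors' caller wrote them; replicates were not pooled. The score column is headed -log10 of a p-value per the file headers. ES files hold raw counts per gene as the authors deposited them, 26995317 to 33771487 per library, beside 7.28% to 9.43% in the row for no feature, which was left out. Counts were tested with edgeR 4.0.16 (filterByExpr, TMM, robust quasi-likelihood, Benjamini-Hochberg adjustment over 14664 genes, two-sided, threshold 0.05), all 8 libraries in 1 fit. The SE is the log2 change divided by the root of the F statistic. On simulated data for A-MYB without Dox (14664 genes), 74% of 50 genes changed 1.5-fold and 88% of 50 changed 2-fold were recovered. In the same simulation 9 unchanged genes were called. It gave all genes 1 common spread and changed few of them, so these rates may not hold for genes whose libraries vary more. Replicates of a group differed beyond sampling noise (chi-square per degree of freedom 5.35 to 14.3).

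Regions named were the 15 with the largest smaller fold, 5 each by tag count, width and nearness to the rule's limit, those with a gene start, and fixed-list genes; named genes were, per A-MYB contrast, up to 10 higher and 10 lower with mean log2 CPM of at least 0 and groups that do not overlap. This rule was written for genes that start in a member and was applied to host genes after the data were seen. Members and lists were chosen with earlier results of these data known. Alternatives covered overlap, gaps, score, fold, list size, libraries left out, DESeq2 1.42.0, its size factors, the filter and the replicate block. Intervals and floors cover counting error only.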

Additional observations from a re-analysis of the deposited data

Results flagged for a closer look

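For 17 of the 33 named host genes the A-MYB change with Dox differed from the change without it, by the interaction term of the edgeR fit (adjusted p under 0.05). Over all 14664 genes tested the share was 40.9%. The 33 were named for a large change in one contrast or the other, which favours a difference between them, so nothing is read from their share. The difference is given as the log2 change with Dox minus that without. It was positive for Sdk2 (2.86), Myrip (1.95), Sned1 (1.56), Rbm20 (1.28), 9030617O03Rik (0.77), Pet112 (0.75), Lphn3 (0.68) and Fars2 (0.51). It was negative for Zfp442 (-1.47), Tmx4 (-0.86), Rhobtb3 (-0.79), Plod2 (-0.73), Gnaq (-0.70), Crxos1 (-0.69), Fam174b (-0.68), Sorl1 (-0.66) and Pam (-0.54). The values nearest the threshold were those of Fam174b (edgeR adjusted p = 0.0493) and Pam (edgeR adjusted p = 0.0483).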

How the results depend on the processing

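The number of mutant-only regions, 1432, stayed between 1301 and 1915 when peaks had to share 50% of the shorter one, when peaks within 1 kb were merged, or when each list was held to its 19023 highest scores. It was 473 with a score of at least 100 in every list, 65 with that score asked of mutant peaks only, and 16 with a fold of at least 10 in every list. Leaving out 1 library gave 2274 to 3876 regions, since the rule then needs fewer lists. The share with a gene start moved to 0.868% (4 of 461), 0% (0 of 64) and 0% (0 of 16) under the same 3 stricter lists, and was 0.263% to 0.349% with 1 library left out. For genes starting in a member the alternatives say nothing about stability: 0 were tested under each, except 1 (Gm13710, not called) with every gene of at least 1 count kept.

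The host gene counts without Dox were 47 higher and 11 lower, and 27 to 40 and 5 to 8 with 1 library left out, where fewer libraries inform the fit. The lowest counts were 27 without untreated replicate 1, 30 without A-MYB replicate 1, and 5 lower without either untreated replicate 2 or A-MYB replicate 1. With Dox, 62 and 35 became 44 to 56 and 26 to 38. Hosts of the regions whose mutant scores reached 100 (14 tested) gave 3 higher and 1 lower without Dox, and 3 and 4 with Dox. The replicate block gave 48 and 11 without Dox and 61 and 36 with Dox. Replicate numbers did not pair the libraries (correlations of -0.027 to 0.084). DESeq2 gave 39 and 10, and 51 and 31. Of 360 values for named host genes under the alternatives, 332 kept call and direction, 28 lost the call and 0 reversed.

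The weaker score was under 60 in 49.0% of members, and the part of depth in this was not tested. The lists give no wild-type tags at members.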
